A study of Mus musculus with 48 samples.

Results

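Klf2, Klf4, Nos3, Edn1 and Ece1 were examined as 5 genes of shear stress sensing, nitric oxide synthesis and endothelin production in sorted mouse endothelial cells. They were taken by symbol from a deposited table of read counts for 15569 genes, and all 5 were found there. In the table, on mouse build mm10, Klf2 lies on chromosome 8 (72319062 to 72321654, plus strand) and Klf4 on chromosome 4 (55527137 to 55532475, minus strand). Nos3 lies on chromosome 5 (24364819 to 24384474, plus strand), Edn1 on chromosome 13 (42301270 to 42307989, plus strand) and Ece1 on chromosome 4 (137862237 to 137965229, plus strand).

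All groups came from Abcg2CreERT;ROSATdTomato mice, in which a tamoxifen-activated Cre recombinase driven by Abcg2 switches on the red protein TdTomato. Every mouse, whatever its group, had received 50 mg/kg tamoxifen 24 hours before its tissue was taken. Endothelial cells were sorted as CD31+, CD45- and Ter119- cells and split into TdTomato+ cells, which the submitters call vascular endothelial stem cells, and TdTomato- cells, which they call mature endothelial cells. The groups were TdTomato+ and TdTomato- cells of postnatal day 1 (P1) heart with 4 pairs, P1 lung with 5, postnatal day 6 (P6) muscle with 5, 6-week (6W) heart with 5 and 6W muscle with 4. The mark therefore follows Abcg2 activity around the injection, and the TdTomato- cells carry the same alleles and the same drug. Since no label says if a pair stands for 1 animal or for pooled animals, the p-values reflect only how these sorted pairs vary.

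Flowing blood exerts a frictional force, shear stress, on the endothelium. Through the kinases MEK5 and ERK5 and factors of the MEF2 family it raises the transcription factors KLF2 and KLF4, which are known to raise NOS3 and thrombomodulin and to hold down endothelin-1. NOS3, the endothelial nitric oxide synthase, makes nitric oxide from arginine, and nitric oxide relaxes the smooth muscle around the vessel. EDN1 is the precursor of endothelin-1, a peptide that constricts vessels, and ECE1 is the membrane protease that cuts its last intermediate, big endothelin-1, into the active form. Klf2 and Klf4 are also among the genes known to respond while tissue is dissociated, so immediate early genes are given beside them.

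Promoter windows of 250 bases before to 50 bases after the start were found for 4 of the 5 genes in RefSeq (build GRCm38.p6). They are shown for the pair of factors, whose messages moved together across the groups, and for Edn1, whose message had the widest range. Letters are in capitals where a motif was found, on either strand.
Klf2, chr8:72318812-72319111, plus strand: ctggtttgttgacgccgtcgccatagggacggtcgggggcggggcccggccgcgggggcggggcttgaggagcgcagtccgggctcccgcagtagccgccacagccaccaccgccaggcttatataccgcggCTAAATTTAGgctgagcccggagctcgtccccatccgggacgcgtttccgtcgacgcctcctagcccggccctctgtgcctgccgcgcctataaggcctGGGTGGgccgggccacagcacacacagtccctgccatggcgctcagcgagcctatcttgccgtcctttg
Klf4, chr4:55532426-55532725, minus strand: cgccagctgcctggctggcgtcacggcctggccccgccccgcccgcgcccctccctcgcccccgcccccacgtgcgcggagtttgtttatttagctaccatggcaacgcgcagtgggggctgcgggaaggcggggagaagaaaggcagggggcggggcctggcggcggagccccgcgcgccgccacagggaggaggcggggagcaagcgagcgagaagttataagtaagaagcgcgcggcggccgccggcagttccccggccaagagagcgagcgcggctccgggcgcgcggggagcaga
Edn1, chr13:42301226-42301525, plus strand: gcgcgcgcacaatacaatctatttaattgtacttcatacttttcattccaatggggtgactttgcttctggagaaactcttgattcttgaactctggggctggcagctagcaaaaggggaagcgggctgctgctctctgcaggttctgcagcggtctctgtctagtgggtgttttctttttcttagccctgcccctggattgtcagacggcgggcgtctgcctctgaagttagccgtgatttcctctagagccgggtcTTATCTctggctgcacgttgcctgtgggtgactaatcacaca

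The capitals at base -118 of the Klf2 window mark a match to the MEF2 consensus, which reads the same on both strands and which 3.19% of all 32851 windows hold on either strand. At base -19 the Klf2 window has CCACCC on the minus strand, the core letters bound by KLF factors, found in 31.5% of windows on either strand. The capitals in the Edn1 window, at base 9 after the start, mark AGATAA on the minus strand, a letter string of GATA factor sites that 11.2% of windows hold. In the count table Edn1 starts at 42301270, inside this window and before its RefSeq start. Most of the Edn1 window therefore lies within the gene as counted. Of the letters searched, TATAAA on the forward strand (8.32% of windows) and TGACTCA on either strand (5.2%) were found in none of the windows of these genes, and no searched letters were found in the Klf4 window. No searched motif overlapped another, apart from CCACCC at bases -128 and -123 of 1 of the 4 Ece1 windows, which share a letter. By base composition the Klf2 and Klf4 windows were rich in G and C (69.3% and 74.3%), whereas Edn1 had 51.3%, near the median of 52.7% over all windows. Such matches describe letters and not binding.

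Depth was 17512843 to 27622937 counts per library over the 48 libraries, of which 46 entered the comparisons, since P1 heart pair 1 was removed by the submitters. All 10 pan-endothelial markers averaged at least 10 CPM, counts scaled to a common library total, in each group, with sums of 7562 to 19960 CPM per library. RNA integrity numbers ran from 3.6 to 10.0 and averaged lower in the TdTomato+ library of the pair in all 5 combinations, with mean differences of -2.12 in 6W muscle, -1.85 in P1 heart, -0.92 in 6W heart and between -0.78 and -0.34 elsewhere. The 4 libraries of 6W heart pairs 5 and 6 carry a tissue field that reads muscle, against titles and source names that read heart. Their summed cardiomyocyte markers were 159.2 to 335.8 CPM, above the 33.71 to 52.89 CPM of the other 6W heart libraries and the 0.4441 to 27.3 CPM of 6W muscle, and they were kept as heart. Called results of the 5 genes with 6W heart are given with and without them below. Called genes of the marker lists and of the lists of related genes are given only with these pairs. Without them the fraction differences in 6W heart were -0.05 for Klf2, 0.03 for Klf4, -0.19 for Nos3, -0.01 for Edn1 and -0.12 for Ece1 on the log2 scale, none called.

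Levels were compared between genes per length, as RPKM, which divides CPM by the length of the gene in kilobases. Klf2 was the most abundant of the 5 messages in 8 of the 10 groups, with group means of 229.2 to 851.7 RPKM, and in both 6W muscle groups Ece1 was above it. Edn1 was the least abundant in 9 of the 10 groups, with 8.204 to 64.79 RPKM, and only in 6W muscle TdTomato- cells did Klf4, at 26.25 RPKM, lie under Edn1 at 30.75 RPKM. Ranked by mean CPM over all genes tested, Ece1 stood at percentile 99.2, Klf2 at 99.1, Nos3 at 98.7, Klf4 at 94.6 and Edn1 at 75.9.

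**Figure D1:**
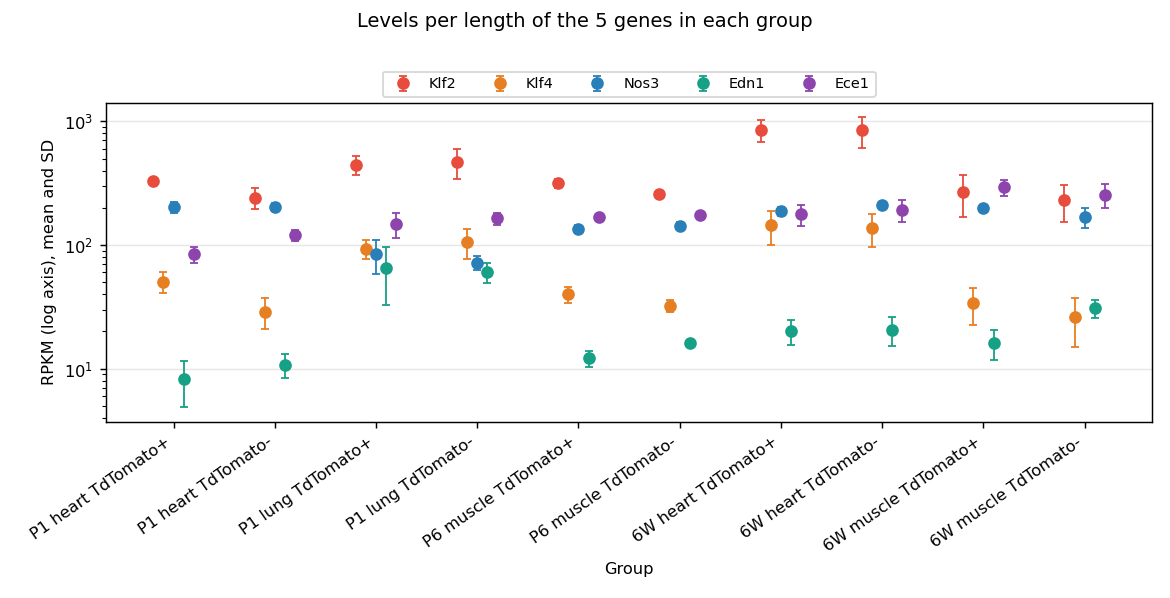
Mean level of each gene in each of the 10 groups, in RPKM (log axis), with the SD over the 4 or 5 libraries of the group as bars. Klf2 heads most groups, Ece1 is above it in 6W muscle, and Edn1 is lowest in each group but 6W muscle TdTomato- cells, where Klf4 lies under it.

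The largest group mean of Edn1 was 7.9 times its smallest, the widest range of the 5 genes in CPM. For Klf4 the ratio was 5.5, for Klf2 3.72, for Ece1 3.48 and for Nos3 2.93. Each gene had its own order of groups. Klf2 and Klf4 were both highest in 6W heart and lowest in 6W muscle TdTomato- cells, with P1 lung TdTomato+ above P1 heart TdTomato+ as the 1 step without overlap. Nos3 was highest in 6W heart TdTomato- cells and lowest in P1 lung, Edn1 was highest in P1 lung and lowest in P1 heart TdTomato+ cells, and Ece1 was highest in 6W muscle and lowest in P1 heart TdTomato+ cells. Most neighbours in these orders overlapped in their libraries; the exceptions are named with each gene.

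**Figure D2:**
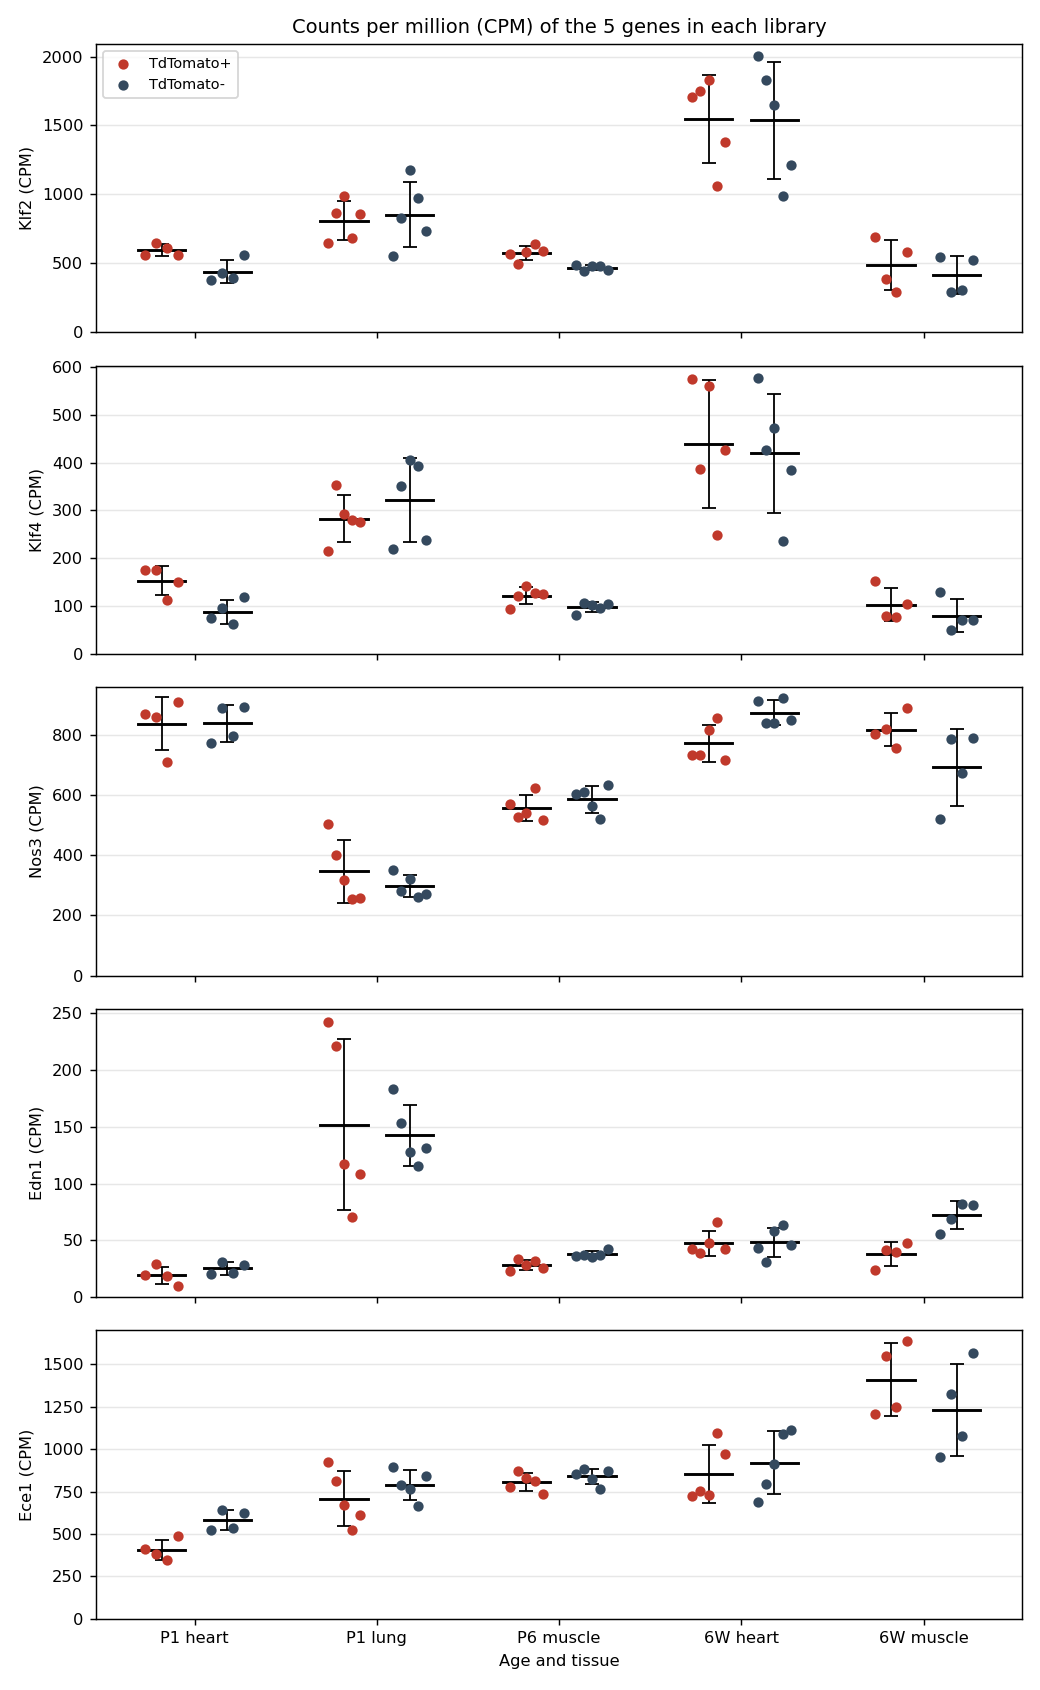
CPM of each gene in every library, with the mean and SD of each group as black lines, for TdTomato+ (red) and TdTomato- (dark blue) cells of the 5 combinations of age and tissue. Klf2 and Klf4 stand highest in 6W heart, Nos3 lowest in P1 lung, Edn1 highest in P1 lung and Ece1 highest in 6W muscle.

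The first question of the design is how TdTomato+ cells differ from TdTomato- cells of the same sort. A gene is called here when its adjusted p lies below 0.05 in the quasi-likelihood test of edgeR, adjusted by Benjamini-Hochberg over 15557 genes, with the pair as a block. In P1 heart 3 of the 5 genes were called, where 14.7% of all genes were: Klf2 and Klf4 rose and Ece1 fell in TdTomato+ cells. In 6W muscle Edn1 fell and was the 1 gene called, where 5.23% of all genes were. In P1 lung edgeR called 0 of the 5 genes, where 9.78% of all genes were called, with 1 at an unadjusted p below 0.05 and 0 called by DESeq2. In P6 muscle edgeR called 0, where 0.977% of all genes were called, with 3 at an unadjusted p below 0.05 and 0 called by DESeq2. In 6W heart edgeR called 0, where 0.874% of all genes were called, with 0 at an unadjusted p below 0.05 and 0 called by DESeq2.

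Averaged over the 5 combinations, 4 of the 5 genes were called, where 8.39% of all genes were: Klf2 and Klf4 rose and Edn1 and Ece1 fell. These averages were small, 1.14-fold for Klf2, 1.22-fold for Klf4, 1.3-fold for Edn1 and 1.1-fold for Ece1. The test that the 5 fraction differences are equal was called for 3 of the 5 genes, where 16.8% of all genes were. None of the 4 averages was called without the pair block (adjusted p = 0.332, 0.171, 0.106 and 0.307 for Klf2, Klf4, Edn1 and Ece1), and none with RNA integrity as a covariate (0.536, 0.214, 0.15 and 0.825). All 4 were called without 6W heart pairs 5 and 6 (adjusted p 0.00288 to 0.0416). With P1 heart pair 1 included only Klf4 stayed called, and Ece1 was also lost without 6W muscle pair 5 or P1 heart pair 3 or 4 (adjusted p up to 0.0566). In the same average 18 of 19 immediate early genes were higher in TdTomato+ cells, 5 of 8 arterial markers were lower and 4 of 7 venous markers were higher, and their part in the averages was not tested.

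**Figure D3:**
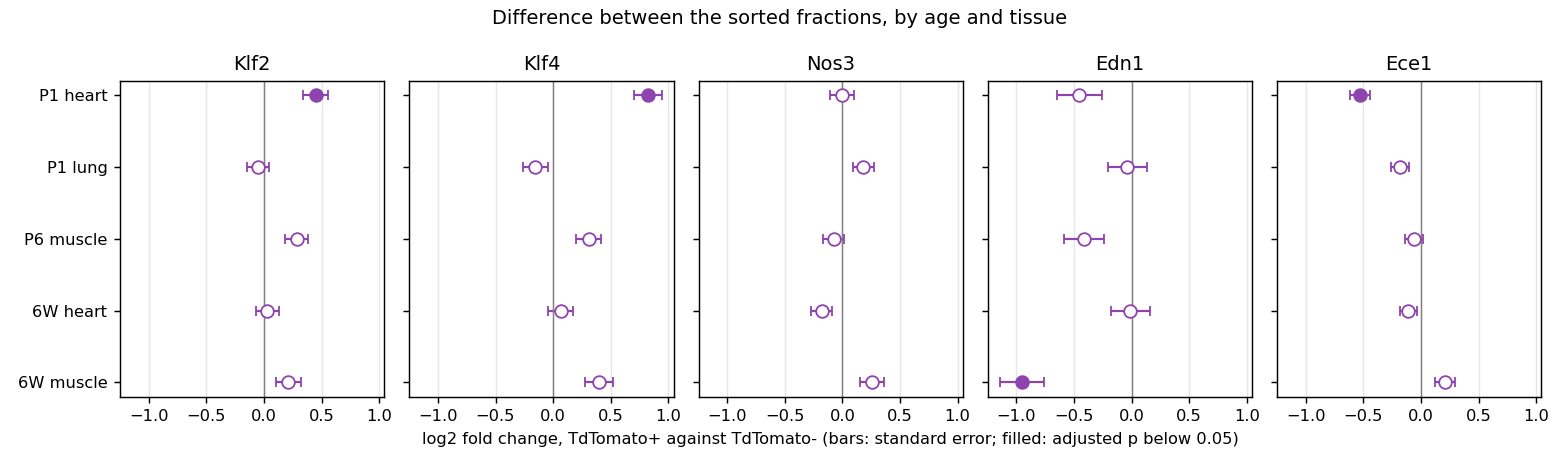
Log2 fold change of TdTomato+ against TdTomato- cells for each gene in each combination of age and tissue, with standard errors as bars and filled points where the adjusted p was below 0.05. Filled points are Klf2, Klf4 and Ece1 in P1 heart and Edn1 in 6W muscle, and Nos3 has none.

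Klf2, the factor most closely tied to flow, differed between fractions in P1 heart. There it stood at 558.3, 646.8, 611.7 and 559.6 CPM in the TdTomato+ libraries of pairs 2 to 5, and at 377.1, 428.0, 395.5 and 557.9 CPM in the TdTomato- libraries. The groups did not overlap, which held for 9.28% of all genes, but only by 558.3 to 557.9 CPM, and pair 5 was nearly equal. Scaling by total count reversed pair 5, to 581.2 CPM (TdTomato+) and 622.9 CPM (TdTomato-), and the groups then overlapped. Both partners of pair 5 had an RNA integrity number of 8.5. For pairs 2, 3 and 4 the TdTomato+ numbers were 7.5, 7.1 and 3.6, each below its partner (9.2, 8.0 and 8.4). The means were 594.1 ± 43.0 and 439.6 ± 81.6 CPM (SD, n = 4 each), a log2 difference of 0.45 ± 0.11 (SE) or 1.37-fold (edgeR, adjusted p = 0.00845). The call was lost without pair 2, 3 or 4 (adjusted p up to 0.0836), without the pair block (adjusted p = 0.253), with RNA integrity as a covariate (adjusted p = 0.11) and with P1 heart fitted alone (adjusted p = 0.0742).

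In P6 muscle, Klf2 was at 564.7, 495.3, 581.8, 638.1 and 586.1 CPM in TdTomato+ and at 488.5, 444.6, 479.2, 478.5 and 453.8 CPM in TdTomato- libraries of pairs 1 to 5. Every TdTomato+ library was above every TdTomato- library, as for 3.96% of all genes, yet the log2 difference of 0.29 ± 0.0985 missed the threshold (edgeR, adjusted p = 0.275), and with P6 muscle fitted alone it was called (adjusted p = 0.0107). In 6W muscle, where the libraries spread widely, TdTomato+ had 693.7, 384.1, 293.6 and 583.0 CPM and TdTomato- 545.1, 290.9, 307.3 and 521.5 CPM in pairs 2 to 5. Partners there were high or low together, and 3 of 4 TdTomato+ libraries were above their partners. In P1 lung, 648.0, 863.0, 989.8, 684.8 and 855.7 CPM in TdTomato+ faced 552.7, 830.6, 1180, 974.8 and 733.0 CPM in TdTomato- libraries of pairs 1, 5, 6, 7 and 8. In 6W heart the TdTomato+ libraries of pairs 1, 2, 4, 5 and 6 had 1710, 1752, 1829, 1061 and 1382 CPM and the TdTomato- libraries 2005, 1827, 1650, 989.6 and 1214 CPM. In both of these tissues the fractions overlapped, with log2 differences of -0.05 ± 0.0987 in lung and 0.03 ± 0.0983 in heart. In P1 lung 0 of the 5 genes had libraries that did not overlap between fractions, where 3.67% of all genes had.

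Whether the P1 heart difference is particular to it was tested directly. The fraction difference of Klf2 in P1 lung minus that in P1 heart was -0.50 ± 0.148 on the log2 scale (edgeR, adjusted p = 0.029), and this call was lost without P1 heart pair 2, 3 or 4 or P1 lung pair 6 or 7 (adjusted p up to 0.115). It was also lost with RNA integrity as a covariate (0.0565), total count scaling (0.0919), P1 heart pair 1 included (0.054), the compared libraries alone (0.15) and no pair block (0.358). Against 6W heart the corresponding difference of -0.42 ± 0.148 missed the threshold (adjusted p = 0.0841), as did the test of equality over the 5 combinations (adjusted p = 0.0817).

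Klf4, the partner factor of Klf2, showed the same order of groups with larger contrasts. In P1 heart it was at 176.3, 174.7, 113.1 and 150.1 CPM in TdTomato+ and at 75.59, 95.77, 62.46 and 118.5 CPM in TdTomato- libraries of pairs 2 to 5. The groups overlapped, since the lowest TdTomato+ library lay under the highest TdTomato- library, but each TdTomato+ library was above its partner. The means of 153.5 ± 29.5 and 88.09 ± 24.5 CPM (SD, n = 4 each) gave 0.82 ± 0.12 on the log2 scale, 1.77-fold (edgeR, adjusted p = 8.24e-05). It stayed called with each pair left out and with RNA integrity as a covariate, and missed the threshold without the pair block (adjusted p = 0.0542).

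In 6W muscle Klf4 had 151.6, 78.74, 77.64 and 104.3 CPM in TdTomato+ and 129.1, 49.23, 70.24 and 71.05 CPM in TdTomato- libraries of pairs 2 to 5, higher in 4 of 4 pairs. The log2 difference of 0.40 ± 0.121 lay just past the threshold (edgeR, adjusted p = 0.0546) and was called by DESeq2 (adjusted p = 0.0142). In P6 muscle the TdTomato+ libraries had 93.62, 120.9, 141.8, 127.8 and 125.5 CPM and the TdTomato- libraries 80.87, 106.1, 102.3, 95.83 and 105.3 CPM in pairs 1 to 5. The TdTomato+ library was the higher in 5 of 5 pairs, with a log2 difference of 0.31 ± 0.107 that was not called (adjusted p = 0.283), and with P6 muscle fitted alone it was (adjusted p = 0.0337). In P1 lung, Klf4 stood at 214.4, 352.8, 292.7, 279.1 and 276.9 CPM in TdTomato+ and 218.5, 352.1, 404.9, 393.0 and 237.3 CPM in TdTomato- libraries of pairs 1, 5, 6, 7 and 8. In 6W heart it stood at 574.4, 387.6, 559.6, 248.1 and 427.3 CPM in TdTomato+ and 576.5, 425.5, 473.5, 236.5 and 384.5 CPM in TdTomato- libraries of pairs 1, 2, 4, 5 and 6. Neither of the last 2 tissues separated the fractions.

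For Klf4 the fraction difference itself differed between tissues and ages. It was lower in 6W heart than in P1 heart (log2 -0.76 ± 0.16, edgeR, adjusted p = 0.00382) and lower in P1 lung than in P1 heart (-0.97 ± 0.16, adjusted p = 0.000216), and both were called with each pair left out. Of the 5 genes, 2 were called for the first difference, where 8.05% of all genes were, and 2 for the second, where 11.4% were. The test of equality gave F = 10.5 (adjusted p = 0.00128). The difference between 6W and P1 heart was -0.80 without 6W heart pairs 5 and 6 (adjusted p = 0.00887), and equality then gave F = 9.72 (adjusted p = 0.00229). Without the pair block none of these was called (adjusted p = 0.269 and 0.0849 for the differences and 0.311 for equality).

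Ages and tissues were compared within each fraction. Between P1 and 6W heart 4 of the 5 genes were called in TdTomato+ cells, where 43% of all genes were, and 4 in TdTomato- cells, where 49.3% were. Klf2 rose 2.61-fold in TdTomato+ cells (log2 1.39 ± 0.201, adjusted p = 8.35e-06, but 0.79 and 0.0601 with P1 heart pair 1 included) and 3.5-fold in TdTomato- cells (1.81 ± 0.229, adjusted p = 6.73e-07). Klf4 rose 2.87-fold (1.52 ± 0.229, adjusted p = 1.29e-05) and 4.76-fold (2.25 ± 0.272, adjusted p = 3.26e-07). In each of these 4 comparisons the groups did not overlap, as for 28.8% of all genes in TdTomato+ and 38% in TdTomato- cells. Pericyte and smooth muscle markers also rose with age in heart, 10 of 10 in TdTomato+ and 8 of 10 in TdTomato- cells, and their part was not tested.

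Between tissues at 6 weeks, 3 of the 5 genes were called between heart and muscle in TdTomato+ cells, where 15% of all genes were, and 5 in TdTomato- cells, where 21.9% were. Klf2 was 3.17-fold higher in heart in TdTomato+ cells (adjusted p = 7.64e-06) and 3.69-fold in TdTomato- cells (adjusted p = 2.76e-06). Klf4 was 4.27-fold higher (adjusted p = 2.64e-06) and 5.24-fold higher (adjusted p = 1.22e-06). Heart and muscle libraries sequenced in the same run gave smaller differences that were still called, with log2 values of 1.34 and 1.42 for Klf2 and 1.73 and 1.97 for Klf4. The heart libraries of that run were only those of 6W heart pairs 5 and 6, whose tissue field reads muscle.

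Without 6W heart pairs 5 and 6, which were the lowest 6W heart libraries of Klf2 in both fractions, the rise from P1 to 6W heart was 1.58 and 2.06 for Klf2 and 1.74 and 2.48 for Klf4 on the log2 scale. Against 6W muscle it gave 1.87 and 2.13 for Klf2 and 2.32 and 2.62 for Klf4, in TdTomato+ and TdTomato- cells in turn, and all of these were called.

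At P1, 4 of the 5 genes were called between lung and heart in TdTomato+ cells, where 34.5% of all genes were, and 5 in TdTomato- cells, where 36.9% were. Klf4 was higher in lung by 1.85-fold in TdTomato+ (adjusted p = 0.00416) and by 3.65-fold in TdTomato- cells (adjusted p = 7.01e-06). Klf2 was 1.94-fold higher in lung in TdTomato- cells (adjusted p = 0.00155), with overlapping libraries, and its log2 difference of 0.45 in TdTomato+ cells missed the threshold (adjusted p = 0.0811). Lung and heart of P1 carry different batch numbers in the run sheet, so tissue and batch cannot be told apart in these comparisons. From P6 to 6W muscle, 2 of the 5 genes were called in TdTomato+ cells, where 34% of all genes were, and 2 in TdTomato- cells, where 42.5% were. Neither was Klf2 or Klf4, whose log2 differences ran from -0.29 to -0.17, and here age cannot be told apart from the sequencing run.

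**Figure D4:**
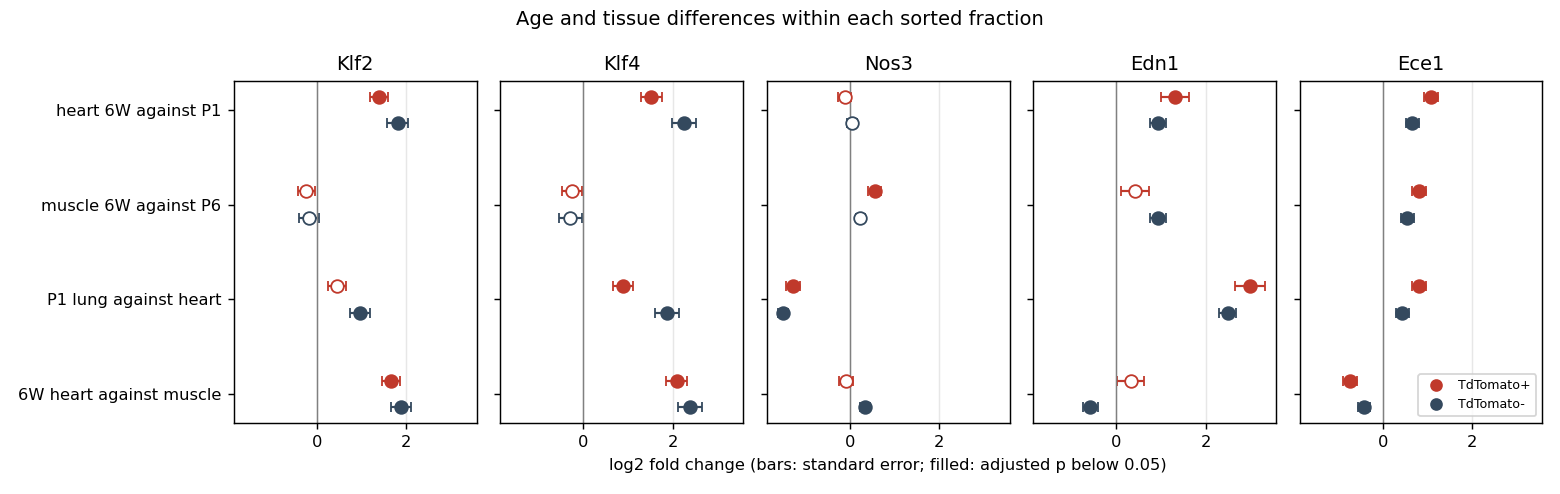
Log2 fold changes between ages and between tissues within TdTomato+ (red) and TdTomato- (dark blue) cells, with standard errors as bars and filled points where the adjusted p was below 0.05. Klf2 and Klf4 rise with age in heart and not in muscle, Nos3 is lower in P1 lung than in P1 heart, and Edn1 is much higher there.

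Immediate early and heat shock genes, a list of 19 with the factors themselves left out, moved in several of the same comparisons. Their summed level in P1 heart was 8461, 12410, 9981 and 6858 CPM in TdTomato+ and 4986, 7382, 6367 and 5190 CPM in TdTomato- libraries of pairs 2 to 5. The groups overlapped, the TdTomato+ library was higher in 4 of 4 pairs, and 14 of the 19 genes rose, where 14.7% of all genes were called. From P1 to 6W heart 12 rose and 2 fell in TdTomato+ cells, and 15 rose and 1 fell in TdTomato- cells. Of all genes 43% and 49.3% were called there. Between 6W heart and muscle 11 were higher and 1 lower in heart in each fraction. There 15% of all genes were called in TdTomato+ and 21.9% in TdTomato- cells. In P1 lung 10 of the 19 rose in TdTomato+ cells, where 9.78% of all genes were called and Klf2 and Klf4 were not. In P6 muscle 8 rose, where 0.977% of all genes were called, and the summed level was higher in 5 of 5 pairs. Klf2 and Klf4 were also higher there in 5 of 5 pairs, without being called. In 6W heart 2 rose and in 6W muscle 3, where 0.874% and 5.23% of all genes were called. The part of tissue handling in the Klf2 and Klf4 differences was not tested.

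Library by library, the list and the factors went together in some places and not in others. In P1 heart TdTomato+ cells, pair 3 had the highest summed level (12410 CPM) and the highest Klf2 (646.8 CPM). Pair 5 had the lowest summed level (6858 CPM) and the smallest log2 differences between fractions, 0.00448 for Klf2 and 0.34 for Klf4. P1 lung pair 1 had the highest summed immediate early level in lung, 25710 CPM in TdTomato+ and 20300 CPM in TdTomato- cells, and the lowest Klf2 and Klf4 of that tissue in both fractions. In 6W heart the summed level fell into higher libraries, pairs 1, 2 and 6 with 24140 to 28090 CPM, and lower ones, pairs 4 and 5 with 11830 to 14910 CPM. Of the lower ones, pair 4 had high Klf2 (1829 and 1650 CPM) and pair 5 the lowest of the tissue (1061 and 989.6 CPM).

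**Figure D5:**
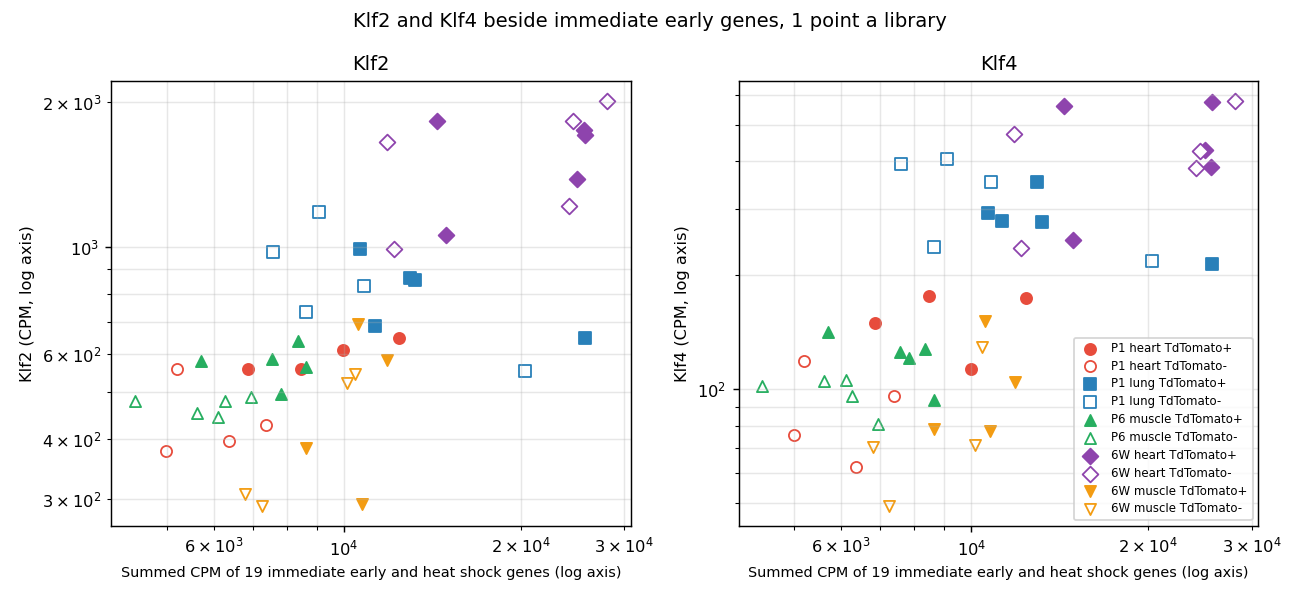
Klf2 (left) and Klf4 (right) against the summed CPM of 19 immediate early and heat shock genes, 1 point a library, on log axes, with colour and shape for age and tissue and filled points for TdTomato+ cells. Most 6W heart libraries lie at the upper right, pairs 4 and 5 further left, and P1 lung pair 1 lies to the right of the other lung libraries with lower Klf2 and Klf4.

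Nos3, the enzyme that makes nitric oxide, differed little between fractions. In P1 heart it was at 870.2, 859.6, 711.4 and 909.2 CPM in TdTomato+ and 773.7, 888.8, 797.9 and 891.9 CPM in TdTomato- libraries of pairs 2 to 5, with means of 837.6 ± 86.8 and 838.1 ± 61.2 CPM (SD, n = 4 each). In 6W heart the TdTomato+ libraries of pairs 1, 2, 4, 5 and 6 had 732.4, 734.7, 815.9, 857.7 and 716.9 CPM and the TdTomato- libraries 912.9, 840.4, 839.0, 923.5 and 849.1 CPM. Here the TdTomato+ library was lower in 5 of 5 pairs, with overlapping groups and a log2 difference of -0.18 ± 0.0922 that was not called (edgeR, adjusted p = 0.469). In 6W muscle the order was the opposite, with 803.9, 818.5, 756.7 and 890.2 CPM in TdTomato+ and 519.6, 785.3, 674.1 and 789.5 CPM in TdTomato- libraries of pairs 2 to 5. The TdTomato+ library was higher in 4 of 4 pairs, and the log2 difference of 0.26 ± 0.103 was not called (adjusted p = 0.178) but was called at 0.47 with RNA integrity as a covariate (adjusted p = 0.0357). The contrast between 6W heart and 6W muscle was -0.44 ± 0.138 on the log2 scale and missed the threshold (edgeR, adjusted p = 0.0891), while DESeq2 called it (adjusted p = 0.04).

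In P6 muscle Nos3 stood at 571.3, 528.1, 539.3, 623.7 and 516.6 CPM in TdTomato+ and 603.0, 608.6, 565.3, 520.3 and 632.4 CPM in TdTomato- libraries of pairs 1 to 5. P1 lung had the lowest levels, 504.0, 399.2, 318.7, 255.2 and 258.5 CPM in TdTomato+ and 351.1, 282.5, 322.1, 260.0 and 271.6 CPM in TdTomato- libraries of pairs 1, 5, 6, 7 and 8. All P1 lung libraries lay below all libraries of the other groups, and P6 muscle TdTomato+ above P1 lung TdTomato+ was the 1 step in the order of groups without overlap. Nos3 was 2.41-fold lower in P1 lung than in P1 heart in TdTomato+ cells (log2 -1.27 ± 0.149, adjusted p = 1.09e-06) and 2.82-fold lower in TdTomato- cells (log2 -1.49 ± 0.109, adjusted p = 1.49e-10). Edn1, Ece1 and Klf4 were higher in lung.

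In heart, Nos3 did not follow the age difference of Klf2 and Klf4, with log2 differences between 6W and P1 of -0.11 in TdTomato+ (edgeR, adjusted p = 0.568) and 0.06 in TdTomato- cells, the latter turning to -0.20 when libraries were scaled by total count. In muscle it rose with age in TdTomato+ cells, 1.47-fold (log2 0.56 ± 0.148, adjusted p = 0.0055, and 0.161 with P1 heart pair 1 included), and missed the threshold in TdTomato- cells (log2 0.24, adjusted p = 0.0766). Its libraries of the 2 ages did not overlap in TdTomato+ cells, as for 37.2% of all genes, and in muscle age cannot be told apart from the sequencing run. At 6 weeks it was higher in heart than in muscle in TdTomato- cells, by 0.33 ± 0.109 on the log2 scale (adjusted p = 0.0311). That call was lost without 6W heart pair 1 or 5 or 6W muscle pair 2 or 4 (adjusted p up to 0.139), without 6W heart pairs 5 and 6 together (adjusted p = 0.08), with the compared libraries alone (adjusted p = 0.0859) and within the second sequencing run (adjusted p = 0.252). On the other strand, exons of Atg9b and of an antisense transcript overlap 294 and 1040 of the 4132 exon bases of Nos3 in the GENCODE annotation. Atg9b totalled 5365 counts over all libraries against 678373 for Nos3, and whether the counting used strand is not known from the sources used, so reads of the partners cannot be told apart.

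Edn1, the endothelin-1 precursor, had the widest range of group means and fell in TdTomato+ cells of 6W muscle. There it was at 23.5, 41.28, 39.47 and 47.72 CPM in TdTomato+ and at 55.94, 69.15, 81.86 and 81.34 CPM in TdTomato- libraries of pairs 2 to 5. The groups did not overlap, as for 6.62% of all genes, and each TdTomato+ library was below its partner. Means of 37.99 ± 10.3 and 72.07 ± 12.3 CPM (SD, n = 4 each) gave a log2 difference of -0.95 ± 0.192, 1.93-fold lower (edgeR, adjusted p = 0.00409). The call held with each pair left out and was lost without the pair block (adjusted p = 0.0726) and with P1 heart pair 1 included (adjusted p = 0.239). With that pair, which is not part of 6W muscle, the log2 difference stayed at -0.957.

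The arterial and venous markers also differed between these fractions of 6W muscle. Summed arterial markers were 1145 to 1792 CPM in TdTomato+ and 1757 to 2411 CPM in TdTomato- libraries, with 4 of 8 genes lower and 0 higher. Summed venous markers were 2296 to 4995 CPM against 1191 to 2071 CPM, with 5 of 7 genes higher. In bulk libraries fewer cells of a type and less RNA per cell cannot be told apart, and the part of this mix in the Edn1 difference was not tested.

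In P6 muscle the libraries of Edn1 formed another step without overlap, at 23.21, 33.16, 28.0, 31.73 and 25.86 CPM in TdTomato+ against 36.08, 37.36, 35.32, 36.95 and 42.08 CPM in pairs 1 to 5. Each TdTomato+ library was below its partner, but the log2 difference of -0.41 ± 0.171 was not called (edgeR, adjusted p = 0.475). In P1 heart it was at 19.62, 28.85, 18.56 and 9.892 CPM in TdTomato+ and 20.21, 31.33, 21.18 and 28.38 CPM in TdTomato- libraries of pairs 2 to 5, with most of the gap in pair 5. That log2 difference of -0.45 ± 0.197 was not called either (adjusted p = 0.133). In 6W heart the TdTomato+ libraries of pairs 1, 2, 4, 5 and 6 had 42.58, 38.57, 47.66, 66.26 and 42.39 CPM and the TdTomato- libraries 43.6, 31.16, 58.38, 63.13 and 45.88 CPM, with no order between them. Over all combinations Edn1 was higher in the TdTomato+ library in only 4 of 23 pairs, and the average log2 difference of -0.37 ± 0.0805 was called (adjusted p = 0.00494), but not under the 3 alternatives given with the averages (adjusted p = 0.106 without the block, 0.15 with RNA integrity and 0.0547 with P1 heart pair 1).

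The fraction difference of Edn1 was 0.94 ± 0.255 higher on the log2 scale in 6W heart than in 6W muscle (edgeR, adjusted p = 0.0469), the 1 gene of the 5 called there, where 2.7% of all genes were. This call lies at the threshold and was lost with each of the 9 pairs left out (adjusted p 0.0689 to 0.167), without 6W heart pairs 5 and 6 (adjusted p = 0.106) and with a coarser dispersion grid alone (adjusted p = 0.0509). Fits with a pair left out used the coarser grid too, so their loss of the call cannot be laid to the pairs. Equality over the 5 combinations stood likewise at the threshold (F = 4.43, adjusted p = 0.0491, and 0.0569 with the coarser grid, 0.0899 without 6W heart pairs 5 and 6). Between 6W and P6 muscle the fraction differences of the 5 genes gave 0 calls by edgeR, where 1.57% of all genes were called, with 3 at an unadjusted p below 0.05 and 0 by DESeq2.

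P1 lung held the highest Edn1 levels and the widest spread. The TdTomato+ libraries of pairs 1, 5, 6, 7 and 8 had 242.1, 221.3, 117.1, 70.11 and 108.8 CPM and the TdTomato- libraries 183.1, 153.2, 127.9, 115.8 and 131.7 CPM. Every TdTomato- lung library was above every library of 6W muscle TdTomato- cells, the next group in order, whereas the lowest TdTomato+ lung library was not. Against P1 heart Edn1 was 7.91-fold higher in TdTomato+ cells (log2 2.98 ± 0.339, adjusted p = 7.03e-07) and 5.63-fold in TdTomato- cells (2.49 ± 0.19, adjusted p = 3.34e-10), without overlap, as for 19.4% and 30.4% of all genes. Lung epithelial markers summed to 1024 to 54210 CPM in TdTomato+ and 1553 to 6519 CPM in TdTomato- lung libraries, with the surfactant gene Sftpc leading, against 5.344 to 10.98 CPM in P1 heart. Leukocyte markers, led by Lyz2, reached 3418 CPM in TdTomato+ lung libraries. The part of either in the lung level of Edn1 was not tested.

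With age, Edn1 rose in heart 2.48-fold in TdTomato+ (log2 1.31 ± 0.317, adjusted p = 0.00194) and 1.91-fold in TdTomato- cells (0.94 ± 0.181, adjusted p = 0.000149), the latter with overlapping libraries and not called with P1 heart pair 1 included (0.26, adjusted p = 0.503). Without 6W heart pairs 5 and 6 these were 1.17 and 0.81 on the log2 scale and still called. In muscle, where age cannot be told apart from the sequencing run, it rose 1.92-fold from P6 to 6W in TdTomato- cells (0.94 ± 0.176, adjusted p = 0.000137). In TdTomato+ cells the log2 difference of 0.42 missed the threshold (adjusted p = 0.305). Whether these age differences differ between fractions is the contrast tested above, which was not called. Between 6W heart and muscle Edn1 was lower in heart in TdTomato- cells (log2 -0.58 ± 0.175, adjusted p = 0.0211), with overlap, and this was lost without 6W heart pair 2 or 6W muscle pair 4 or 5 (adjusted p up to 0.0699), with the compared libraries alone (0.0693), with P1 heart pair 1 included (0.219) and within the second run (0.299). Without 6W heart pairs 5 and 6 it was -0.70 and called (adjusted p = 0.0153).

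Ece1, the protease that releases endothelin-1, fell in TdTomato+ cells of P1 heart. It was at 409.9, 379.2, 345.4 and 487.3 CPM in TdTomato+ and at 526.0, 640.8, 534.9 and 625.9 CPM in TdTomato- libraries of pairs 2 to 5, without overlap. Means of 405.4 ± 60.6 and 581.9 ± 59.8 CPM (SD, n = 4 each) gave a log2 difference of -0.53 ± 0.0861, 1.44-fold lower (edgeR, adjusted p = 0.000268). This call held with each pair left out, without the pair block and with RNA integrity as a covariate. It was also the 1 step in the order of Ece1 groups without overlap.

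In 6W muscle Ece1 went the other way without being called: 1205, 1548, 1247 and 1635 CPM in TdTomato+ faced 954.7, 1325, 1076 and 1567 CPM in TdTomato- libraries of pairs 2 to 5, higher in 4 of 4 pairs (log2 0.21 ± 0.0857, adjusted p = 0.19). P1 lung had 925.2, 811.2, 672.2, 520.5 and 613.1 CPM in TdTomato+ and 896.7, 785.8, 762.9, 662.0 and 843.7 CPM in TdTomato- libraries of pairs 1, 5, 6, 7 and 8. P6 muscle had 777.1, 869.2, 832.1, 813.2 and 733.4 CPM in TdTomato+ and 853.5, 881.2, 821.2, 765.9 and 872.1 CPM in TdTomato- libraries of pairs 1 to 5. The fractions overlapped in all 3 tissues. In 6W heart the TdTomato+ libraries of pairs 1, 2, 4, 5 and 6 had 721.1, 752.1, 728.1, 1095 and 969.9 CPM and the TdTomato- libraries 691.0, 793.7, 914.0, 1091 and 1114 CPM, with pairs 5 and 6 higher than the rest in both fractions.

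The fraction difference of Ece1 was 0.42 ± 0.115 higher on the log2 scale in 6W heart than in P1 heart (edgeR, adjusted p = 0.0244). That call was lost without 6W heart pair 1, 2 or 5 or P1 heart pair 3 or 4 (adjusted p up to 0.111). Equality over the 5 combinations was called (F = 9.56, adjusted p = 0.00204) and stayed so with each pair left out and without 6W heart pairs 5 and 6 (adjusted p = 0.00373). Without the pair block neither was called (adjusted p = 0.325 and 0.227). Without 6W heart pairs 5 and 6 the difference from P1 heart was 0.40 and was not called (adjusted p = 0.068). It was also lost with RNA integrity as a covariate (0.0513), with both heart ages fitted alone (0.069) and with P1 heart pair 1 included (0.325), and that pair removed the equality call as well (0.149).

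Over age, Ece1 rose in heart 2.11-fold in TdTomato+ (log2 1.08 ± 0.162, adjusted p = 1.25e-05) and 1.58-fold in TdTomato- cells (0.66 ± 0.141, adjusted p = 0.000436). In muscle it rose 1.75-fold (0.81 ± 0.157, adjusted p = 0.000345) and 1.47-fold (0.56 ± 0.139, adjusted p = 0.00243). It was the 1 gene of the 5 called in all 4 age comparisons, but in muscle age cannot be told apart from the sequencing run. Within 6W heart, Ece1 was at 969.9 to 1114 CPM in pairs 5 and 6 of the second run. The 6W heart pairs of the first run had 691.0 to 914.0 CPM. Without 6W heart pairs 5 and 6 the heart values were 0.87 and 0.46 on the log2 scale and still called. At P1 it was higher in lung than in heart, 1.75-fold in TdTomato+ (adjusted p = 0.000531) and 1.36-fold in TdTomato- cells (adjusted p = 0.0159, lost without P1 heart pair 2 or 4). At 6 weeks it was lower in heart than in muscle, 1.65-fold in TdTomato+ (log2 -0.72 ± 0.157, adjusted p = 0.00307) and less so in TdTomato- cells (log2 -0.42 ± 0.139, adjusted p = 0.0331). Neither was called within the second run (log2 -0.43 and -0.14, adjusted p = 0.166 and 0.722), which holds 6W heart pairs 5 and 6. Without those pairs both were called (-0.92 and -0.62, adjusted p = 0.000966 and 0.0039). The TdTomato+ call was lost with P1 heart pair 1 included (adjusted p = 0.0748) and the TdTomato- call with the compared libraries alone (adjusted p = 0.139), and the TdTomato- call was lost without 6W heart pair 1, 2 or 4 or 6W muscle pair 3 or 5.

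Markers of other cells also differed between the fractions of P1 heart, where Klf2, Klf4 and Ece1 were called. Endocardial markers summed to 220.3 to 311.0 CPM in TdTomato+ and 695.2 to 1117 CPM in TdTomato- libraries, with 7 of 7 genes lower. Fibroblast markers summed to 36.55 to 270.5 CPM against 452.8 to 749.0 CPM, with 6 of 8 lower. Arterial markers were the reverse, 986.6 to 1257 CPM against 799.3 to 886.6 CPM, with 4 of 8 higher and 1 lower. The part of this mix in the differences of the 3 genes was not tested. The authors' deposited table called Klf2 (log2 0.92, false discovery rate 0.00608) and Klf4 (0.84, 0.00676) in P1 heart and neither Ece1 there nor Edn1 in 6W muscle (-0.93, 0.607). Its values had the same sign as the present ones in 23 of 25 cases. In P1 heart they lay away from the present ones, with Klf2 at 0.92 against 0.45 on the log2 scale. Nos3 was at 0.31 there against -0.004, and Ece1 at -0.35 against -0.53. With P1 heart pair 1 included, Nos3 was at 0.235 here. The present values held the pair as a block. Outside P1 heart the authors' values lay close to the fit without that block. Klf2 in P1 lung was at -0.0802 in theirs and -0.0798 without the block, and Edn1 in 6W muscle at -0.927 and -0.923. In P1 heart Klf2 was at 0.435 without the block. Which P1 heart libraries entered the authors' values was not established, so the 2 sets may be unlike.

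Across the 10 groups, which share libraries of the same pairs, Klf2 and Klf4 had the most similar profiles of the 5 genes (Pearson r = 0.963 of mean log2 CPM, n = 10 groups). Nos3 and Edn1 ran opposite to each other (r = -0.792), with P1 lung at the far end of both. Among 9451 genes at 10 CPM or more, those most like Klf2 were Id1 (0.943), Id3 (0.927) and Irf3 (0.927). Those most like Klf4 were Gadd45b (0.962), Csrnp1 (0.955) and Jund (0.95), of which Jund is in the immediate early list. Most like Nos3 were Hdgfrp3 (0.978), Itpr2 (0.969) and Mgat4a (0.966), most like Edn1 Peli1 (0.967), Gna14 (0.948) and Derl2 (0.946), and most like Ece1 Txndc16 (0.985), Nqo1 (0.978) and Fam210b (0.978). With 10 groups such values describe shared profiles, and no test is given.

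Around the 5 genes, 7 lists of related genes were counted, 123 of whose 129 entries are in the table. Comparisons of these lists with 6W heart include 6W heart pairs 5 and 6 and were not repeated without them. Flow sensors and the MEK5 to ERK5 pathway came first, with 27 genes. In P1 heart, where 14.7% of all genes were called, 7 rose and 1 fell in TdTomato+ cells. Their median log2 difference was 0.11, against -0.036 over all genes. Hdac5, a deacetylase that binds MEF2 factors, rose 1.45-fold (log2 0.53 ± 0.0976, adjusted p = 0.000812). From P1 to 6W heart, where 43% and 49.3% of all genes were called, 12 rose and 3 fell in TdTomato+ cells and 16 rose and 1 fell in TdTomato- cells. Trpv4, a calcium channel that opens to mechanical strain, rose 5.71-fold in TdTomato+ and 12.9-fold in TdTomato- cells (136.3 ± 42.5 against 10.54 ± 1.72 CPM in the latter, adjusted p = 1.1e-11).

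Other KLF factors numbered 14 in the table. In P1 heart 6 rose and 1 fell in TdTomato+ cells (median log2 0.339), where 14.7% of all genes were called. Klf13 rose 1.69-fold (166.8 ± 31.8 against 97.72 ± 12.9 CPM, edgeR, adjusted p = 0.000749). With age in heart 7 rose and 1 fell in TdTomato+ cells and 8 rose and 1 fell in TdTomato- cells, where 43% and 49.3% of all genes were called. Klf9, a factor raised by glucocorticoids, rose 6.5-fold in TdTomato+ (log2 2.70 ± 0.351, adjusted p = 1.91e-06) and 11-fold in TdTomato- cells (adjusted p = 2.88e-08). In 6W heart against muscle, Klf12 was 3.75-fold higher in heart in TdTomato+ and 3.87-fold in TdTomato- cells.

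Genes known to be raised by KLF2 or KLF4 numbered 20 in the table, of which Tek, Tie1 and Icam2 are also pan-endothelial markers and Gja4 an arterial one. In P1 heart, where both factors were called higher, 2 rose and 5 fell in TdTomato+ cells, and 14.7% of all genes were called. The median log2 difference of the list was -0.0932, against -0.036 over all genes. The most certain was Tmem100, a membrane protein of the BMP pathway, which fell 3.48-fold (24.57 ± 9.31 against 82.46 ± 12.8 CPM, adjusted p = 0.000154). From P1 to 6W heart 12 rose and 4 fell in TdTomato+ cells (median log2 1.19, against 0.029 over all genes) and 9 rose and 4 fell in TdTomato- cells (0.781 against -0.013). Of all genes 43% and 49.3% were called there. S1pr1, the receptor of sphingosine 1-phosphate, rose 3.41-fold in TdTomato+ (1989 ± 307.0 against 584.7 ± 143.0 CPM) and 4.29-fold in TdTomato- cells. In 6W heart against muscle 7 were higher and 3 lower in TdTomato+ cells, where 15% of all genes were called. Pi16 was 73.4-fold higher in heart (log2 6.20 ± 0.493, edgeR, adjusted p = 2.84e-08).

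Of 17 genes known to be lowered by KLF2 or KLF4, 4 rose and 3 fell in TdTomato+ cells of P1 heart, with a median log2 difference of -0.205. In P1 lung 6 rose and 0 fell, with a median of 0.335. Of all genes 14.7% were called in P1 heart and 9.78% in P1 lung. In P1 heart Cxcl12, a chemokine, rose 3-fold (log2 1.58 ± 0.143, adjusted p = 2e-07), and Fn1, fibronectin, fell 2.5-fold (adjusted p = 3.15e-05). From P1 to 6W heart 6 rose and 3 fell in TdTomato+ cells and 5 rose and 5 fell in TdTomato- cells, shares near the 43% and 49.3% of all genes called. Cxcl12 rose in both, 3.49-fold and 13.2-fold.

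Nitric oxide synthesis and its cofactors had 26 genes in the table. In P1 heart 3 rose and 1 fell in TdTomato+ cells, where 14.7% of all genes were called. Spr, which makes the cofactor tetrahydrobiopterin, was up 1.42-fold (edgeR, adjusted p = 0.0101). In P1 lung 0 rose and 4 fell, where 9.78% of all genes were called. Among these was Nostrin, which draws NOS3 from the membrane (1.97-fold lower, 114.2 ± 20.3 against 222.4 ± 20.9 CPM, edgeR, adjusted p = 3.17e-05). Of 10 pan-endothelial markers 6 also fell and 0 rose in TdTomato+ cells of P1 lung. Their summed level was higher in the TdTomato+ library in 0 of 5 pairs, and the part of this in the list was not tested. At 6W against P1 in heart 2 rose and 10 fell of the 25 tested in TdTomato+ cells (median log2 -0.155) and 6 rose and 10 fell in TdTomato- cells (-0.0648), where 43% and 49.3% of all genes were called. Between 6W heart and muscle Nostrin was 11.4-fold higher in heart in TdTomato+ cells (70.48 ± 9.47 against 6.182 ± 1.8 CPM) and 13.8-fold in TdTomato- cells.

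The nitric oxide receptor and the cGMP pathway, 9 genes, are mostly known from the cells that receive nitric oxide. In P1 heart 0 rose and 4 fell in TdTomato+ cells (median log2 -2.27), where 14.7% of all genes were called. Gucy1b3, a receptor subunit, was at 3.372 ± 1.75 against 15.25 ± 3.75 CPM (edgeR, adjusted p = 0.00127). In 6W heart, where 0.874% of all genes were called, 2 rose, Gucy1b3 (34.98 ± 19.5 against 7.326 ± 2.66 CPM) and Gucy1a3 (88.9 ± 54.0 against 14.59 ± 9.37 CPM). Pericyte and smooth muscle markers summed there to 304.9 to 1807 CPM in TdTomato+ and 82.09 to 372.6 CPM in TdTomato- libraries, and their part in these values was not tested.

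The list of endothelins, their processing and receptors held 10 other genes in the table. Of these, 1 rose and 2 fell in TdTomato+ cells of P1 heart, where 14.7% of all genes were called. In P1 lung, P6 muscle and 6W muscle 0 rose and 1 fell each, where 9.78%, 0.977% and 5.23% of all genes were called. Ednrb, the endothelin receptor of endothelial cells, fell in TdTomato+ cells of P1 heart, 2.04-fold (243.6 ± 110.0 against 465.9 ± 67.7 CPM, adjusted p = 0.000126), and of P1 lung, 2.21-fold (254.7 ± 51.5 against 558.8 ± 79.7 CPM, adjusted p = 4.26e-06). In P1 lung 6 of 10 pan-endothelial markers fell as well and 0 rose, and their part was not tested. Pcsk5, a convertase that cuts precursor proteins, fell in TdTomato+ cells of P6 muscle (2.19-fold, adjusted p = 0.0146) and 6W muscle (2.6-fold, adjusted p = 0.00876). It was 6.01-fold higher in P1 lung than in P1 heart in TdTomato+ cells (308.4 ± 111.0 against 51.37 ± 8.94 CPM) and 8.08-fold higher in 6W heart than in 6W muscle. Edn3, another endothelin precursor, stood at 10.92 ± 6.5 CPM in 6W muscle TdTomato+ cells and at 0.02964 ± 0.0663 CPM in 6W heart TdTomato+ cells (adjusted p = 0.000225).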

How the data were processed

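RNA was sequenced from 48 libraries of sorted mouse endothelial cells, and the authors deposited whole-number read counts per gene, without normalization. Per the submitters' processing notes STAR, featureCounts, edgeR and build mm10 were used; versions and the strand setting are not given in the sources used here. A TruSeq RNA Access kit is named in the labels, whereas the deposited run sheets name SMART-Seq v4 and Nextera XT. The deposited run sheets also gave an integrity score for the RNA of each library, and 2 of their entries belong to other samples and were not used. The authors' deposited table of log2 fold changes and p-values adjusted as false discovery rates is quoted only where named.

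The members and lists were chosen with earlier results of these data known. P1 heart pair 1 was left out, as the labels say that it did not pass quality control. Its TdTomato+ library had counts in 8631 genes, against 13048 to 14973 in the libraries kept. In comparisons without P1 heart, including this pair acts only through the joint scaling, filter and fit. Counts were scaled by edgeR's TMM factors, and filterByExpr removed 12 of 15569 genes. A quasi-likelihood model (edgeR 4.0.16, R 4.3.3) over 46 libraries held 23 pairs as a block and a TdTomato effect for each combination. Ages and tissues were compared within each fraction over 23 libraries, without a block. Dividing a log2 fold change by the root of its F gave the SE, and p-values were adjusted over all genes tested. The labels call the TdTomato+ and TdTomato- libraries of a number matched. The deviations of partners from their group means correlated at -0.007249 to 0.627 (median 0.321), above 0.1 in 22 of 23 pairs. From each list up to 2 called genes with the smallest p per comparison could be named, and a selection of these is given. Alternatives were DESeq2 1.42.0 and its size factors, total count scaling, no filter, RNA integrity as a covariate, pair 1 included and no block. Others were the libraries compared alone, the second sequencing run alone and each pair left out. A first-run check of heart dropped 6W heart pairs 5 and 6 and kept the second-run 6W muscle libraries in the fit. It is therefore the same fit as leaving out those pairs. A coarser dispersion grid (9 points in place of 21, also used when leaving out pairs) was added after seeing the data. Leaving out 6W heart pairs 5 and 6 in the other comparisons was also added then. Scripts were tested on simulated data. With the depth of these libraries counting error is small beside the spread between pairs.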

Additional observations from a re-analysis of the deposited data

Results flagged for a closer look

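Differences in the size of the TdTomato+ against TdTomato- contrast between tissues or ages drew attention to 8 results, each by a test of that difference (edgeR, quasi-likelihood, adjusted by Benjamini-Hochberg). Klf4 differed between 6W and P1 heart (log2 -0.7565, adjusted p = 0.00382) and between P1 lung and P1 heart (-0.9739, adjusted p = 0.000216), with the TdTomato+ library higher in 4 of 4 P1 heart pairs. Klf2 differed between P1 lung and P1 heart (-0.5002, adjusted p = 0.029). Ece1 differed between 6W and P1 heart (0.4196, adjusted p = 0.0244), with the TdTomato+ library lower in 4 of 4 P1 heart pairs. Edn1 differed between 6W heart and 6W muscle (0.9384, adjusted p = 0.0469), with the TdTomato+ library lower in 4 of 4 muscle pairs. The test that all 5 contrasts are equal was called for Klf4 (F = 10.5), Ece1 (F = 9.56) and Edn1 (F = 4.43). None of these was called without the pair as a block. With 1 pair left out at a time, the differences of Klf2 and Ece1 stayed called in 4 of 9 settings each. The Edn1 difference stayed called in 0 of 9 and the Edn1 equality test in 2 of 23. These settings used the coarser dispersion grid. With that grid neither Edn1 result was called even with all pairs kept (edgeR, adjusted p = 0.0509 and 0.0569), so the loss cannot be laid to single pairs. No library stood apart from its group by Dixon's test in any of the 50 sets of 4 or 5 libraries examined.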

How the results depend on the processing

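Counts are of the 5 genes called. Without the replicate block, counts fell to 1 in P1 heart and to 0 in 6W muscle, in the mean over combinations, in the differences between 6W and P1 heart, P1 lung and P1 heart, and 6W heart and 6W muscle, and in the equality test. With P1 heart pair 1 included they were 0 in 6W muscle and in the difference between 6W heart and muscle, and 1 in the mean, in the differences between 6W and P1 heart and between P1 lung and heart, in the equality test and in muscle 6W against P6 in TdTomato+ cells. With RNA integrity as a covariate they were 2 in 6W muscle and in the difference between 6W heart and muscle, 0 in the mean, and 1 in the differences between 6W and P1 heart and between P1 lung and heart. DESeq2 gave 2 in 6W muscle, 2 in the difference between 6W heart and muscle and 5 in the equality test. With only the libraries of the groups compared they were 2 in P6 muscle, 2 in 6W muscle, 1 in the differences between 6W and P1 heart and between P1 lung and heart, and 2 in 6W heart against muscle in TdTomato- cells, where the second run alone also gave 2. Without 6W heart pairs 5 and 6 they were 1 in the difference between 6W and P1 heart and 0 in that between 6W heart and muscle, where the coarser grid also gave 0.

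Leaving out 1 pair at a time gave 1 to 3 for the differences between 6W and P1 heart and between P1 lung and heart, 0 to 0 for that between 6W heart and muscle, and 3 to 5 for 6W heart against muscle in TdTomato- cells. The cause was not tested, except that the grid alone moved Edn1 between 6W heart and muscle past the threshold.

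Reversed signs were seen only for differences that were not called. Edn1 in 6W heart became 0.00885 with DESeq2 size factors, 0.0508 with total counts, 0.00905 with DESeq2 and 0.00371 with only its own libraries. Nos3 in P1 heart became 0.00848 without the filter, 0.235 with pair 1 and 0.18 with RNA integrity. With total counts Nos3 became 0.0373 in 6W heart against muscle (TdTomato+) and -0.20 in heart 6W against P1 (TdTomato-). Pair 1 turned Nos3 in P1 lung minus heart to -0.0532 and Klf2 in lung against heart (TdTomato+) to -0.169. Edn1 in P1 lung became 0.0937 without the block, and Klf2 in 6W heart -0.0511 without 6W heart pairs 5 and 6. Leaving out 1 pair gave -0.0103 to 0.0939 for Klf2 and -0.0925 to 0.0571 for Edn1 in 6W heart, -0.124 to 0.0628 for Klf2 and -0.184 to 0.133 for Edn1 in P1 lung, -0.0617 to 0.05 for Nos3 in P1 heart and -0.136 to 0.0173 for Klf2 in the difference between 6W and P6 muscle. Total count scaling moved the median of all genes by over 0.1 on the log2 scale in 7 of 18 comparisons (-0.2578 to 0.1658) and DESeq2 size factors in 0; it moved the share of higher calls in P1 heart from 51.0% to 26.3%.

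The labels leave animals and pools undistinguished, tissue is confounded with the run sheet's batch at P1 and age with sequencing run in muscle, and the sorted fractions differ in marker levels and RNA integrity.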
